A study of Mus musculus with 143 samples.

Results

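The interleukin 6 and 11 family was followed by bulk RNA-seq in 11 syngeneic mouse tumour models, through 10 genes: the ligands Il6, Il11, Lif and Osm, the receptor chains Il6st, Il6ra, Il11ra1, Osmr and Lifr, and the feedback inhibitor Socs3. Each was found by matching its symbol to an Ensembl gene ID, and all 10 were present among the 54232 gene IDs of the deposited table. The family was proposed after a high level of Il11 in RENCA tumours given the antibody had been seen, so the RENCA contrasts are described here with no test and the tests rest on the other 10 models. Cells of 1 line per model were injected under the skin of the right lower flank. Tumours of the antibody groups carried 2 injections, on days 11 and 15 after implant, of muDX400, an antibody to the checkpoint receptor PD-1, or of an isotype control mIgG1, and were taken on day 19, called 8 days of treatment. Baseline tumours had received neither. Each model had 5 muDX400, 5 isotype and 3 baseline tumours. The labels class the models by their response to anti-PD-1 as High (CM3, MBT2, MC38), Partial (CT26, EMT6, MB49, RENCA) or Resistant (4T1, B16F10, LL2, TC1). They name each line, give no mouse strain, sex or age, and do not say whether replicates are separate animals. Nothing says that replicate numbers mark shared cages or days. Each library was treated as 1 separate tumour. A p-value sets a difference against the spread between the tumours of a group, or between models for the trends with response class.

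Ligands of the family act through receptors built around the shared signalling chain gp130, the product of Il6st. IL-6 and IL-11 bind their own alpha chains (Il6ra, Il11ra1) and then pair gp130 with itself, LIF joins gp130 to the LIF receptor (Lifr), and mouse oncostatin M (Osm) acts mainly through gp130 with Osmr. Ligand binding activates JAK kinases and chiefly STAT3, and STAT3 induces Socs3, whose product binds gp130 and damps the signal. In tumours these cytokines are made by cancer cells, fibroblasts, macrophages and neutrophils, and are known for roles in inflammation, tissue repair and myeloid cell recruitment.

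Values are FPKM as deposited, fragment counts scaled to transcript length and library size, so they may be compared between genes per length. Sequencing depth, estimated from the steps between low FPKM values, was 12.2 to 53.1 M fragments per library with a median of 22.1 M, and was highest in the baseline arms of TC1, RENCA and B16F10. At the median depth 1 fragment is worth about 0.0193 FPKM for Il6 and 0.0232 FPKM for Il11, so levels near 0.1 FPKM rest on a handful of fragments. Every library correlated best with another library of their own model. The 5 melanocyte markers summed to 8120 to 10400 FPKM in B16F10 isotype tumours, a melanoma line, and to 5360 to 7320 FPKM in CM3 isotype tumours, against 4.59 FPKM at most in isotype tumours of the other models. The tumours were sequenced whole, so more cells of a type and more RNA per cell cannot be told apart in any value below.

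On the GRCm38 build, Il6 (ENSMUSG00000025746) lies at chr5:30013114-30019981 on the plus strand and Il11 (ENSMUSG00000004371) at chr7:4772373-4782859 on the minus strand. Osm (ENSMUSG00000058755, chr11:4236420-4241026, plus strand) and Lif (ENSMUSG00000034394, chr11:4257557-4272514, plus strand) are neighbours with 16530 bases and 0 annotated genes between them. The shared chain Il6st (ENSMUSG00000021756) is at chr13:112464070-112510086, and Osmr (ENSMUSG00000022146, chr15:6813577-6874969, minus strand) and Lifr (ENSMUSG00000054263, chr15:7090614-7197489, plus strand) lie near each other. Il6ra (ENSMUSG00000027947) occupies chr3:89864059-89913196 on the minus strand and overlaps Gm42809. Il11ra1 (ENSMUSG00000073889, chr4:41699989-41769474, plus strand) overlaps 6 other annotated genes and has a near-identical copy, Il11ra2, so its values are uncertain. Socs3 (ENSMUSG00000053113) lies at chr11:117966079-117970047 on the minus strand. All 10 are protein-coding genes.

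The stretches just before the transcription starts of 3 ligands and of Socs3 are shown because the windows of these 4 genes, alone among the members, hold a match to a motif of AP-1, STAT or NF-kappaB factors, which are known regulators of cytokine genes. RefSeq windows on GRCm38.p6, 250 bases before each start, were available for 9 of the 10 members (12 windows, not Osm) and were searched on both strands for TGANTCA (AP-1), TTCNNNGAA (STAT) and, for NF-kappaB, GGGA followed by N and TTTCC. Capitals mark the matches, and each sequence is written 5′ to 3′ on the strand of the gene.
Il6, chr5:30012864-30013113, plus strand: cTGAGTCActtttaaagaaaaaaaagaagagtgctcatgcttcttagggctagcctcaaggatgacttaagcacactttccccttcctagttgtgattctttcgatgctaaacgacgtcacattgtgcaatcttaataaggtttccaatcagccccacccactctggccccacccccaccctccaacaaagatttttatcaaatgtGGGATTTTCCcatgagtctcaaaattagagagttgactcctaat
Il11, chr7:4778142-4778391, minus strand, before the shorter transcript and within an intron of the longer ones: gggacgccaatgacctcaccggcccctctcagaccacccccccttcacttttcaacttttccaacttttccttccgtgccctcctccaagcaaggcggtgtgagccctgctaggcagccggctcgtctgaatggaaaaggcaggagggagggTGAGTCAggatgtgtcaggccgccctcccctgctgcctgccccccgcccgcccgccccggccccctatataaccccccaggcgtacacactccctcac
Lif, chr11:4257318-4257567, plus strand: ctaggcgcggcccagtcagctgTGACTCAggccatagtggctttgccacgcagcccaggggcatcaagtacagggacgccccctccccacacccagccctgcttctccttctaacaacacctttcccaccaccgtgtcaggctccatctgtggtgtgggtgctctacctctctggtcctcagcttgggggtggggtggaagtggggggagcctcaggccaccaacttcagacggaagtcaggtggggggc
Socs3, chr11:117969367-117969616, minus strand, overlapping an exon of a non-coding Socs3 transcript: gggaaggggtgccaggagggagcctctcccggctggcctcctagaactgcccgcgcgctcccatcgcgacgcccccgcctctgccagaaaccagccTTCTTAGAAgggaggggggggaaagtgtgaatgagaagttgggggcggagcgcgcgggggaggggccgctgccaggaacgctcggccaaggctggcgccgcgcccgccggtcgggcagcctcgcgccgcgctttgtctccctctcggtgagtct

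The AP-1 motif began 249 bases before the start of Il6, 98 bases before that of Il11 and 228 bases before that of Lif. It is present in 6.75% of all 32851 windows of the same length. The Il6 window also held the NF-kappaB motif, 44 bases before the start, which 0.356% of windows hold. In the Socs3 window the STAT motif, present in 7.02% of windows, began 154 bases before the start. None of the 3 motifs was found in the other 8 member windows. These matches are letters in a window and were not tied to any measurement.

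Levels of the ligands differed widely between models. Il6, the founding member, was low throughout: its isotype mean was highest in TC1, at 2.64 ± 0.453 FPKM (SD, n = 5), followed by CM3 at 1.76, EMT6 at 1.33, RENCA at 1.25 and 4T1 at 1.09 FPKM. The other 6 models had isotype means between 0.210 FPKM in B16F10 and 0.692 FPKM in CT26. Ranges of all neighbouring models in this order overlapped. At baseline TC1 stood apart, with 8.10, 3.46 and 3.87 FPKM, above CM3 at 0.979 FPKM.

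Il11, a cytokine linked to stromal and epithelial signalling, covered the widest range. Isotype means were 23.1 ± 1.96 FPKM in TC1, 17.2 ± 23.0 FPKM in RENCA and 12.9 ± 1.79 FPKM in CT26 (SD, n = 5 each). Only the RENCA group among these was scattered, and TC1 and CT26 did not overlap each other. EMT6 followed at 5.64 FPKM, clear of its neighbours in the order, and 4T1 (2.94), LL2 (2.92) and MC38 (1.89 FPKM) came next. CM3, MB49 and MBT2 had isotype means of 0.813, 0.367 and 0.255 FPKM, and B16F10 had 0.0724 FPKM with 1 library listed at 0.

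Lif, which signals through Lifr and gp130, was highest in EMT6 isotype tumours, at 22.4 ± 3.13 FPKM, and did not overlap 4T1, the next in order, at 14.5 FPKM. RENCA at 13.8 FPKM, whose replicate 4 with 19.4 FPKM lay inside the EMT6 range, and MB49 at 12.1 FPKM followed. TC1, CT26, MC38, MBT2 and LL2 lay between 9.80 and 3.97 FPKM. Only CM3 (0.672 FPKM) and B16F10 (0.544 FPKM) were under 1 FPKM, clear of the other 9 models. Osm, a product mainly of myeloid cells, was highest in MB49 at 4.63 and EMT6 at 4.45 FPKM and was lower in overlapping steps down to LL2 at 1.05 FPKM. It was lowest in TC1 at 0.555 FPKM, which did not overlap LL2, and in B16F10 at 0.311 FPKM, where replicate 3 with 0.826 FPKM did.

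**Figure D1:**
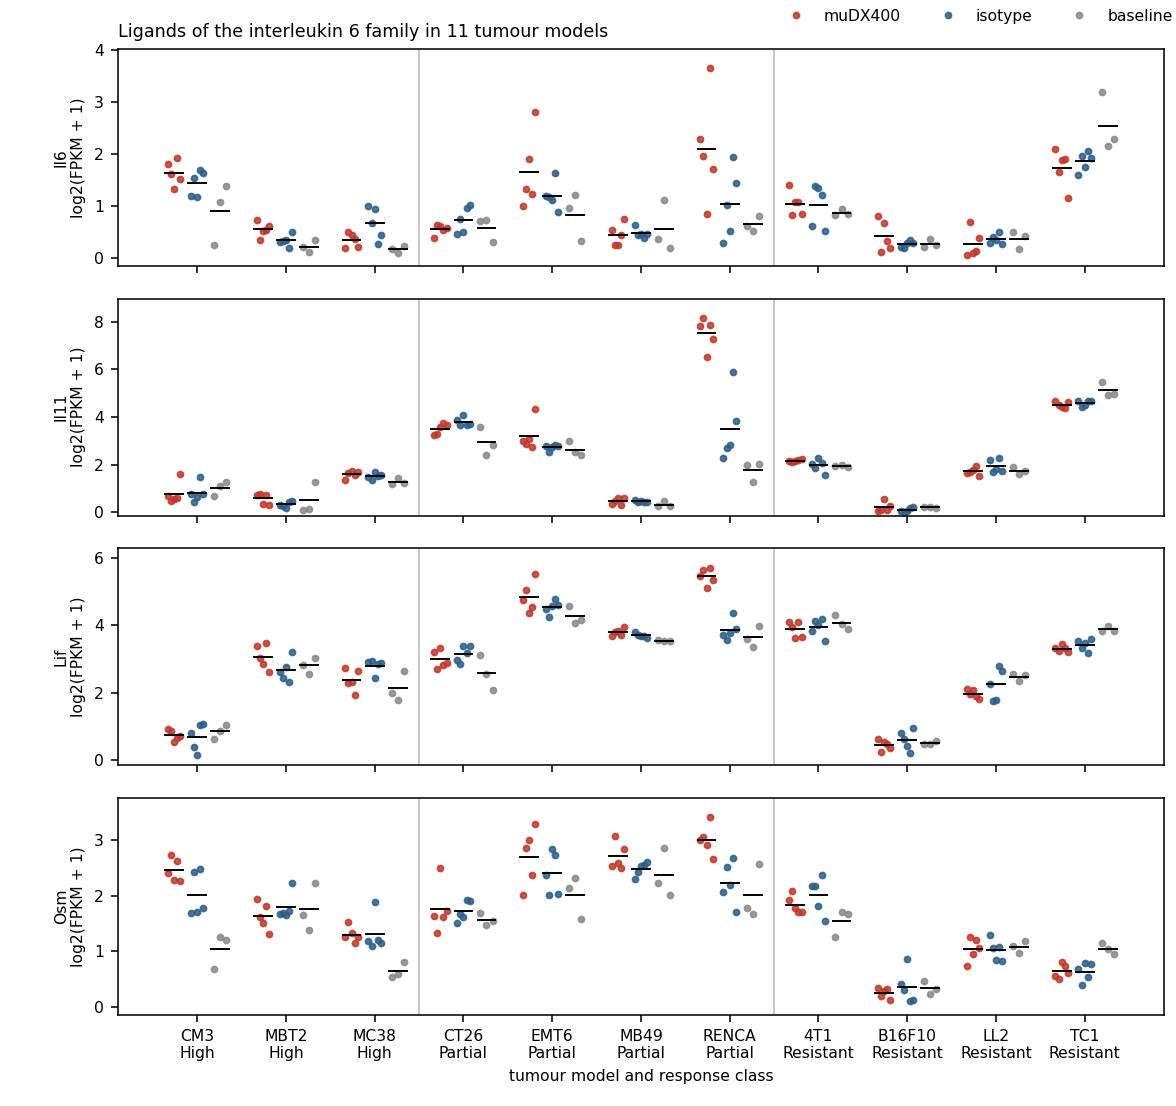
Levels of Il6, Il11, Lif and Osm in each library, as log2(FPKM + 1) on the vertical axis, by model on the horizontal axis with the models grouped by response class. Red points are muDX400, blue isotype and grey baseline tumours, and black bars are arm means; RENCA muDX400 tumours have the highest Il11 of all libraries, up to 283 FPKM, and every B16F10 tumour is under 1 FPKM for all 4 ligands.

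Il6st was the most even of the receptor chains. It had isotype means from 37.3 ± 4.55 FPKM in MBT2 to 14.5 ± 2.71 FPKM in B16F10, with overlapping neighbours throughout. Il6ra, which marks cells that can bind IL-6 directly, ranged from 17.7 FPKM in MBT2 and 17.0 in RENCA to 2.26 in CM3 and 0.410 FPKM in B16F10. At baseline RENCA held the most Il6ra, with 39.3, 31.9 and 30.3 FPKM, apart from MBT2 at 17.6 FPKM. Il11ra1 was highest and most scattered in CM3 (66.6 ± 46.3 FPKM), then 34.0 in TC1 and 32.2 FPKM in B16F10, and lowest in LL2 (6.38) and CT26 (6.24 FPKM). The CM3 values ran from 23.0 to 130 FPKM and were highest in isotype replicates 2 and 3, whose summed FPKM stood apart (784467 and 885333). At baseline CM3 had 23.05 FPKM, under TC1, B16F10 and MBT2.

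Osmr was graded over the models. Neighbours in the order were apart only between CM3, with 11.4 FPKM at lowest, and MBT2, with 10.8 FPKM at highest. Its isotype means were 24.4 FPKM in 4T1, 23.4 in EMT6, 17.4 in TC1 and 14.5 in CM3, none of which overlapped MBT2 at 9.05 FPKM, and the lowest was B16F10 at 1.55 FPKM. Lifr was low in all models, from 7.81 FPKM in CM3 and 4.69 in MC38 to 0.665 FPKM in LL2. Socs3 had the highest isotype mean of the members per length in every model but CM3 and B16F10, where Il11ra1 was higher. Its isotype means ran from 90.9 ± 7.18 FPKM in RENCA and 83.7 ± 6.35 FPKM in TC1, which did not overlap EMT6 at 57.1 FPKM, down to 23.2 in CM3 and 10.2 FPKM in B16F10. In isotype tumours B16F10 had the lowest mean of 8 members, all but Il11ra1 and Lifr. At baseline TC1 had the highest mean of 6 members: Il6, Il11, Il6st, Il11ra1, Osmr and Socs3.

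**Figure D2:**
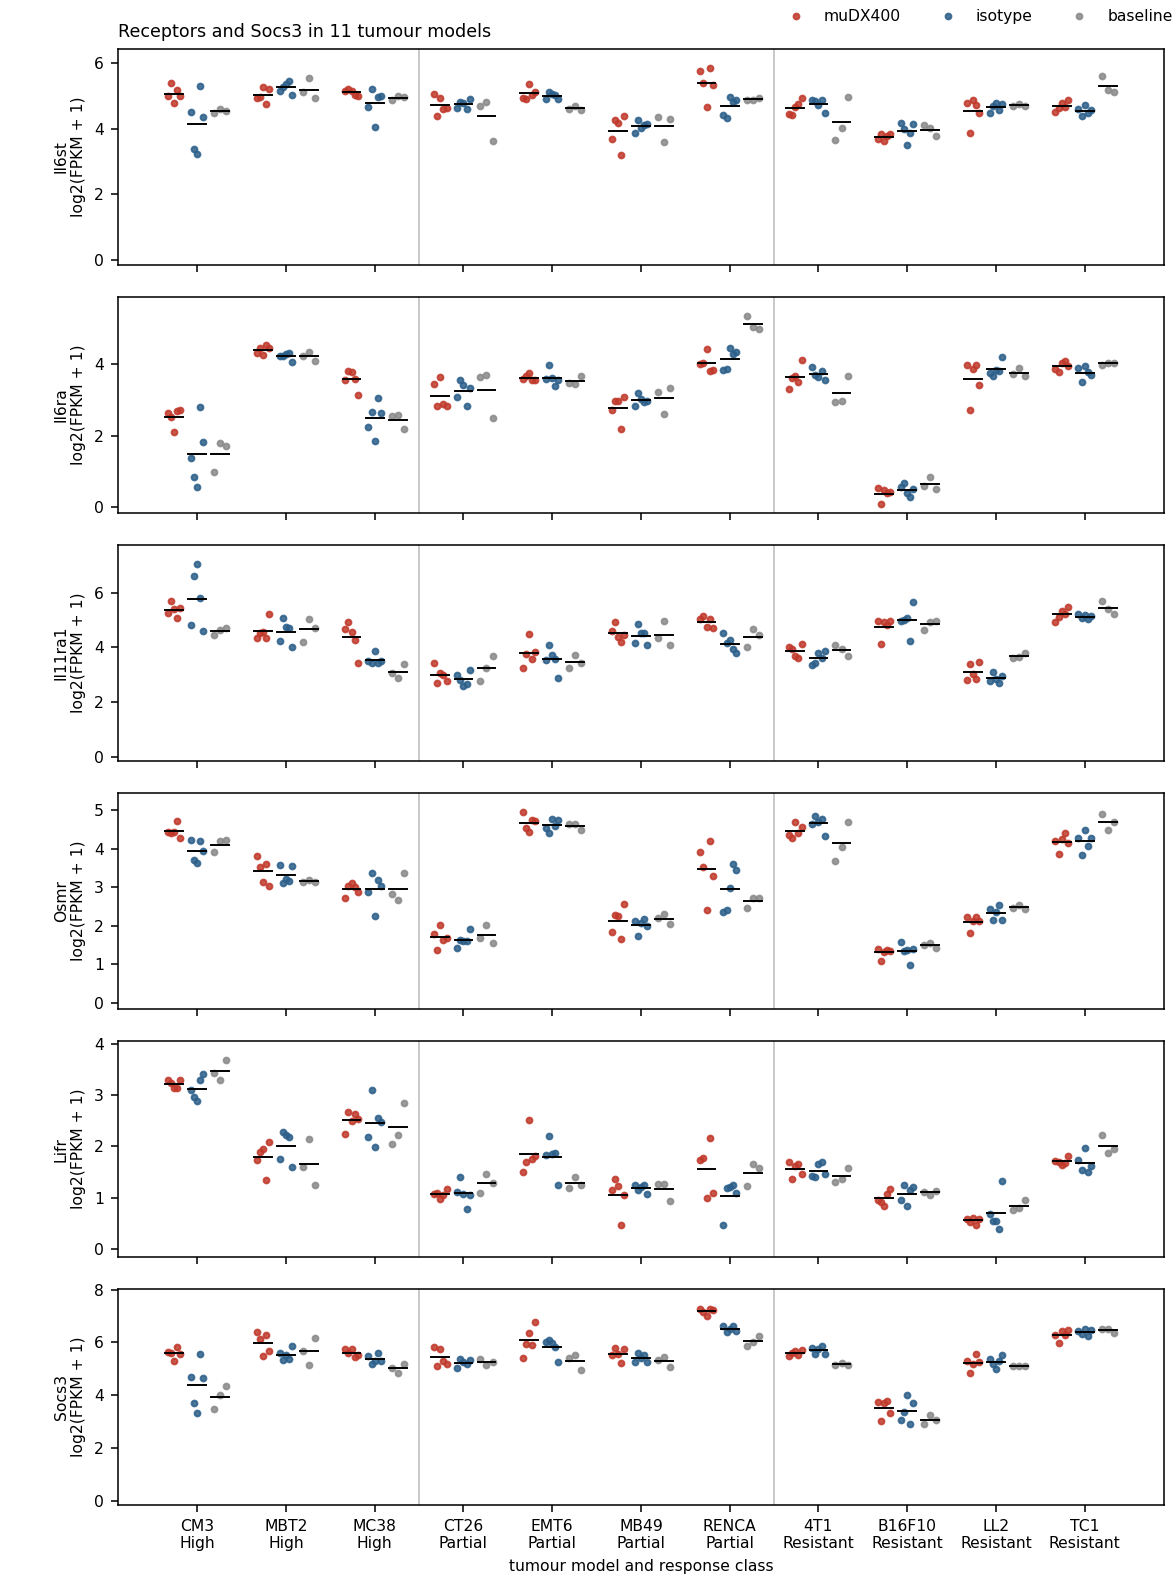
Levels of the receptor chains and Socs3 in each library as log2(FPKM + 1), laid out by model and response class, with red muDX400, blue isotype and grey baseline tumours and black bars at arm means. Isotype means of Il6st stayed between 14.5 and 37.3 FPKM, while Osmr was above 9 FPKM on average in isotype tumours of 4T1, EMT6, TC1, CM3 and MBT2 only.

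In RENCA, a renal carcinoma line of the Partial class, all 4 ligands had higher means in muDX400 than in isotype tumours. Il11 had 225, 283, 91.5, 228 and 152 FPKM in muDX400 tumours, against 3.77, 5.38, 6.08, 57.9 and 13.1 FPKM in isotype tumours and 2.99, 1.44 and 3.06 FPKM at baseline. Every muDX400 tumour lay above every isotype tumour, and the isotype tumours themselves differed widely, with replicate 4 far above the others. The mean was 196 FPKM in muDX400 tumours and 17.2 FPKM in isotype tumours, a ratio of 11.4, and the ratio of medians was 37.1. On the log2(FPKM + 1) scale, used for every difference below and printed with its standard error, muDX400 minus isotype was 4.03 ± 0.59, and between 3.72 and 4.63 with 1 library left out at a time.

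Lif had 43.5, 48.7, 33.7, 51.4 and 39.4 FPKM in RENCA muDX400 tumours, against 12.1, 10.8, 12.7, 19.4 and 13.8 FPKM in isotype tumours and 11.0, 9.27 and 14.9 FPKM at baseline. The muDX400 and isotype groups did not overlap, and the isotype tumours were close to baseline (muDX400 minus isotype 1.60 ± 0.17, a ratio of means of 3.15). Il6 had 3.91, 2.88, 0.803, 11.5 and 2.26 FPKM in muDX400 tumours, against 0.228, 1.02, 0.438, 2.82 and 1.73 FPKM in isotype tumours. These groups overlapped, and the difference of 1.05 ± 0.47 was 0.66 without muDX400 replicate 4. Osm had 7.02, 7.35, 6.58, 9.74 and 5.33 FPKM in muDX400 tumours, against 3.21, 4.74, 3.58, 5.44 and 2.27 FPKM in isotype tumours, overlapping by 1 library (0.78 ± 0.22).

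Among the RENCA receptor chains, Il11ra1 had 31.5, 34.2, 26.1, 32.0 and 25.1 FPKM in muDX400 tumours, against 22.2, 16.9, 18.3, 14.2 and 12.8 FPKM in isotype tumours, with no overlap (0.80 ± 0.16). Il6st differed by 0.72 ± 0.22, Osmr by 0.52 ± 0.35 and Lifr by 0.51 ± 0.25, all with overlapping groups. Il6ra was the 1 member with a negative difference, -0.13 ± 0.18. Socs3, the feedback inhibitor, had 155, 142, 128, 155 and 148 FPKM in muDX400 tumours, against 98.6, 83.9, 89.4, 98.3 and 84.5 FPKM in isotype tumours and 56.7, 63.8 and 74.8 FPKM at baseline. The 3 arms of RENCA did not overlap for Socs3 (muDX400 minus isotype 0.67 ± 0.11, isotype minus baseline 0.48 ± 0.13).

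Groups of RENCA muDX400 and isotype tumours did not overlap for 4 of the 10 members (Il11, Lif, Il11ra1, Socs3), all higher with muDX400. Over 12664 genes the share was 4.94%, and 3.58% for genes higher with muDX400; nothing is read from this comparison, since Il11 in this contrast chose the family. Between RENCA isotype and baseline tumours the groups did not overlap for 3 members, Il11 (1.72 ± 0.72) and Socs3 higher and Il6ra lower (-0.97 ± 0.19), where 24.8% of 13317 genes did not overlap (5.86% higher, 19% lower). Il6ra had 13.2, 13.5, 20.7, 18.4 and 19.1 FPKM in isotype tumours, against 39.3, 31.9 and 30.3 FPKM at baseline. Without isotype replicate 4, Il11 differed by 1.12 between isotype and baseline tumours. RENCA baseline libraries were among the deepest.

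Summed levels of some cell type markers also differed between the RENCA arms. The summed level of the 7 neutrophil markers was 83.8 to 357 FPKM in muDX400 tumours, 28.0 to 91.9 FPKM in isotype tumours and 32.1 to 38.1 FPKM at baseline. The 5 endothelial markers summed to 66.5 to 130 FPKM in muDX400 tumours and to 36.1 to 53.5 FPKM in isotype tumours, with no overlap. The 8 fibroblast markers summed to 1230 to 5170 FPKM in muDX400 tumours and to 788 to 1900 FPKM in isotype tumours. The 5 epithelial markers summed to 849 FPKM in muDX400 replicate 3 and to 83.2 to 177 FPKM in the other muDX400 tumours. They summed to 262 to 627 FPKM with isotype and to 860 to 877 FPKM at baseline. No marker on these 4 lists was at 0 in all libraries of a RENCA arm. Isotype replicate 4, the highest of its arm for Il11, had the highest neutrophil and fibroblast sums of its arm, 91.9 and 1900 FPKM. Its epithelial sum, 262 FPKM, was the lowest, and its endothelial sum, 41.6 FPKM, lay inside the range of the others. In muDX400 replicate 3, the lowest of its arm for Il11, the neutrophil, fibroblast and endothelial sums were the lowest, 83.8, 1230 and 66.5 FPKM. Its epithelial sum, 849 FPKM, was the highest. The part of these markers in the results was not tested.

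**Figure D3:**
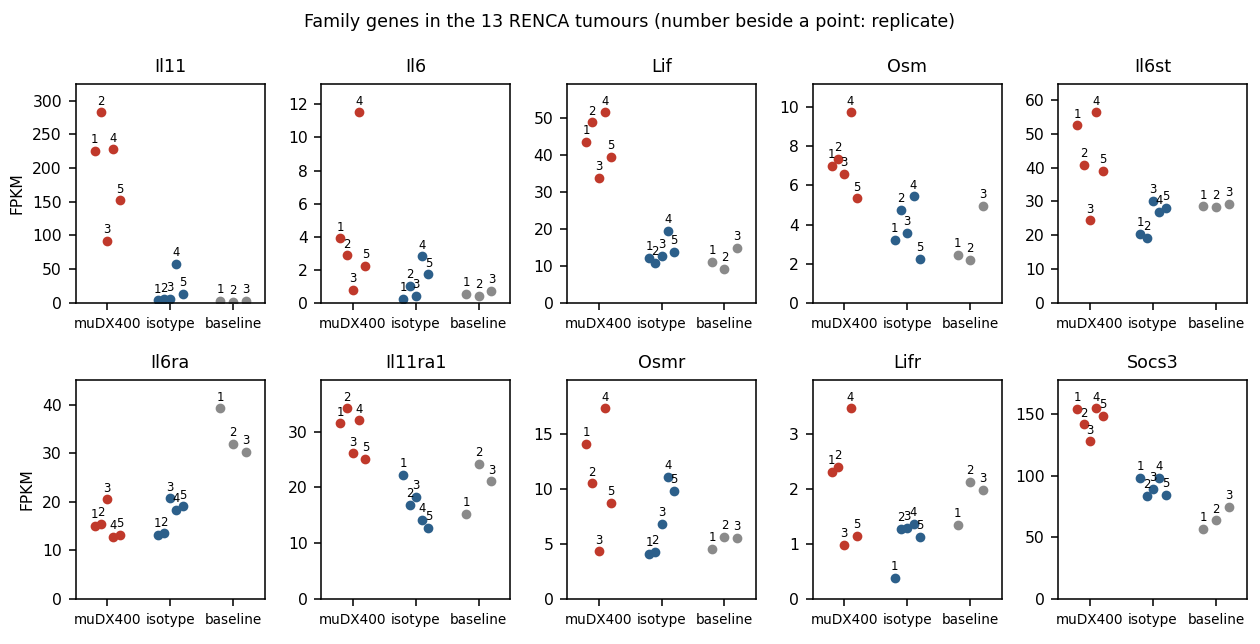
FPKM of each member in the RENCA libraries, 1 panel per gene with muDX400 (red) left of isotype (blue) and baseline (grey), numbers giving the replicate. Il11, Lif, Il11ra1 and Socs3 show muDX400 tumours above every isotype tumour, and isotype replicate 4 is the isotype tumour with the most Il11, 57.9 FPKM.

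Within the 10 tested models, the question was whether 8 days of muDX400 changed the family relative to isotype. Of 84 member tests, 2 passed an adjusted p under 0.05 (limma on log2(FPKM + 1), adjusted by Benjamini-Hochberg over all genes of a model, for genes with at least 1 FPKM in 5 libraries). Both were receptor chains higher with muDX400 in MC38, a colon carcinoma line of the High class in which 27.3% of all genes were called (14.6% higher, 12.7% lower). Il6 passed the filter on low values in 4 models, Il11 in 6 and Lif and Osm in 8 each, and no ligand was called in any of them. Outside MC38 hardly any gene was called: 0.339% in CT26, 0.0802% in TC1 and 0% in the other tested models. The absence of ligand calls there therefore says little about the ligands.

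In MC38, Il6ra had 10.8, 13.1, 12.8, 11.0 and 7.76 FPKM in muDX400 tumours, against 3.77, 5.37, 2.59, 7.31 and 5.25 FPKM in isotype tumours. All muDX400 tumours exceeded all isotype tumours, as for 16.9% of MC38 genes in either direction, and baseline tumours, at 4.90, 4.96 and 3.57 FPKM, lay within the isotype range. Il6ra rose by 1.08 ± 0.21 (adjusted p = 0.00488, limma), a ratio of means of 2.28. Il11ra1 had 24.5, 29.2, 22.4, 18.3 and 9.81 FPKM in muDX400 tumours, against 10.4, 9.76, 13.6, 9.73 and 10.2 FPKM in isotype tumours. It rose by 0.82 ± 0.23 (adjusted p = 0.0247, limma), although muDX400 replicate 5 lay within the isotype range, and the call was lost without any 1 of 4 libraries: the adjusted p was 0.0569 without isotype replicate 1, 0.0537 without isotype replicate 5, 0.0661 without muDX400 replicate 2 and 0.0662 without muDX400 replicate 3. It was also lost when the filter on low FPKM was dropped (adjusted p = 0.0619, limma).

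Lif in MC38 went the other way, with 5.67, 3.85, 4.04, 2.81 and 5.27 FPKM in muDX400 tumours, against 6.49, 6.68, 4.41, 6.27 and 6.43 FPKM in isotype tumours. Its difference of -0.42 ± 0.16 did not pass (adjusted p = 0.0710, limma), but did without isotype replicate 3, the lowest isotype tumour (-0.52, adjusted p = 0.0349). Socs3 differed by 0.25 ± 0.10 (adjusted p = 0.0876, limma). Il11 (0.07 ± 0.11) and Osm were close to their isotype levels, and Il6, under the filter, had means of 0.275 FPKM in muDX400 tumours and 0.621 FPKM in isotype tumours. Markers moved with muDX400 in MC38: the 6 T cell markers summed to 37.1 to 142 FPKM in muDX400 tumours and 9.61 to 19.9 FPKM in isotype tumours, and the 7 macrophage markers to 1510 to 3090 FPKM in muDX400 tumours and 792 to 1270 FPKM in isotype tumours. Their part in the result was not tested.

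CM3, of the High class, had larger differences than MC38 for several members and no call. Socs3 had 48.5, 48.1, 38.8, 55.5 and 46.3 FPKM in muDX400 tumours, against 25.0, 12.1, 9.08, 45.9 and 24.1 FPKM in isotype tumours and 10.04, 15.1 and 19.6 FPKM at baseline. Isotype replicate 4 lay inside the muDX400 range and the other 4 isotype tumours were below it (1.20 ± 0.36, adjusted p = 0.179, limma). Osmr, the oncostatin M receptor, had 20.4, 20.2, 20.6, 25.3 and 18.4 FPKM in muDX400 tumours, against 17.7, 12.0, 11.4, 17.2 and 14.2 FPKM in isotype tumours. These groups did not overlap (0.52 ± 0.15, adjusted p = 0.179, limma), as for 3.53% of CM3 genes. Il6ra differed by 1.05 ± 0.36, Il6st by 0.91 ± 0.35 and Osm by 0.44 ± 0.20, with adjusted p from 0.179 to 0.186 (limma).

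In CM3, 0 of 12945 genes were called by limma, with 3441 at an unadjusted p under 0.05. Isotype replicate 4 stood apart from the other isotype tumours: its fibroblast markers summed to 1247 FPKM, its macrophage markers to 1737 FPKM and its T cell markers to 53.8 FPKM, the last within 49.3 to 57.9 FPKM in muDX400 tumours. Its skeletal muscle markers summed to 751 FPKM, against 0.60 to 1.13 FPKM in the other isotype tumours and 0.60 to 139 FPKM in muDX400 tumours. The part of these markers in the results was not tested. Without isotype replicate 4, 3942 genes were called and so were 5 members: Il6ra (1.37, adjusted p = 0.00466), Socs3 (1.49, 0.00497), Il6st (1.20, 0.0121), Osmr (0.58, 0.0173) and Osm (0.56, 0.0436). Il11ra1 had 36.9, 51.3, 40.9, 32.6 and 41.9 FPKM in CM3 muDX400 tumours, against 27.5, 97.6, 130, 54.6 and 23.0 FPKM in isotype tumours, the widest spread of any member in that arm (-0.41 ± 0.43).

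CM3 isotype replicates 2 and 3 also stood apart. Their FPKM summed to 784467 and 885333, against 525381 to 528393 in the other isotype tumours, and mitochondrial genes took 4.76% and 3.85% of it. They had the lowest Socs3 and the highest Il11ra1 of the arm. With both left out, Socs3 differed by 0.62, Il6ra by 0.53, Il6st by 0.34 and Osmr by 0.34 (adjusted p from 0.413 to 0.455, limma), and the Il11ra1 difference was 0.30. Their part in the CM3 results was not otherwise tested.

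MBT2, the other High model, had no called gene by limma and 3597 genes at an unadjusted p under 0.05. Its Socs3 had 83.5, 68.5, 43.5, 75.9 and 50.0 FPKM in muDX400 tumours, against 47.0, 39.4, 45.3, 40.7 and 58.0 FPKM in isotype tumours, with overlap (0.44 ± 0.17, adjusted p = 0.127, limma). Without muDX400 replicate 3, 2595 genes and Socs3 were called (0.57, adjusted p = 0.0252). Lif differed by 0.40 ± 0.19 (adjusted p = 0.192, limma).

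No member was called in the Partial models CT26, EMT6 and MB49 or in the Resistant models, where limma called 0.339% of genes in CT26, 0.0802% in TC1 and 0% in EMT6, MB49, 4T1, B16F10 and LL2. Unadjusted p were under 0.05 for 538 genes in EMT6, 1247 in MB49, 601 in 4T1, 351 in B16F10 and 1973 in LL2. In EMT6 muDX400 replicate 5 was the highest library for Il6 (6.02 FPKM), Il11 (19.0), Lif (44.6), Osm (8.77) and Socs3 (107 FPKM). In CT26 Il11 had 8.38, 8.59, 11.0, 12.2 and 11.6 FPKM in muDX400 tumours, against 13.8, 11.7, 15.7, 11.6 and 11.9 FPKM in isotype tumours (-0.30 ± 0.12, adjusted p = 0.215, limma). TC1, the line with the most Il11 in isotype tumours, had 22.0 ± 2.21 FPKM with muDX400 and 23.1 ± 1.96 FPKM with isotype (SD, n = 5 each), a difference of -0.07 ± 0.08 with an adjusted p of 0.905 (limma).

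**Figure D4:**
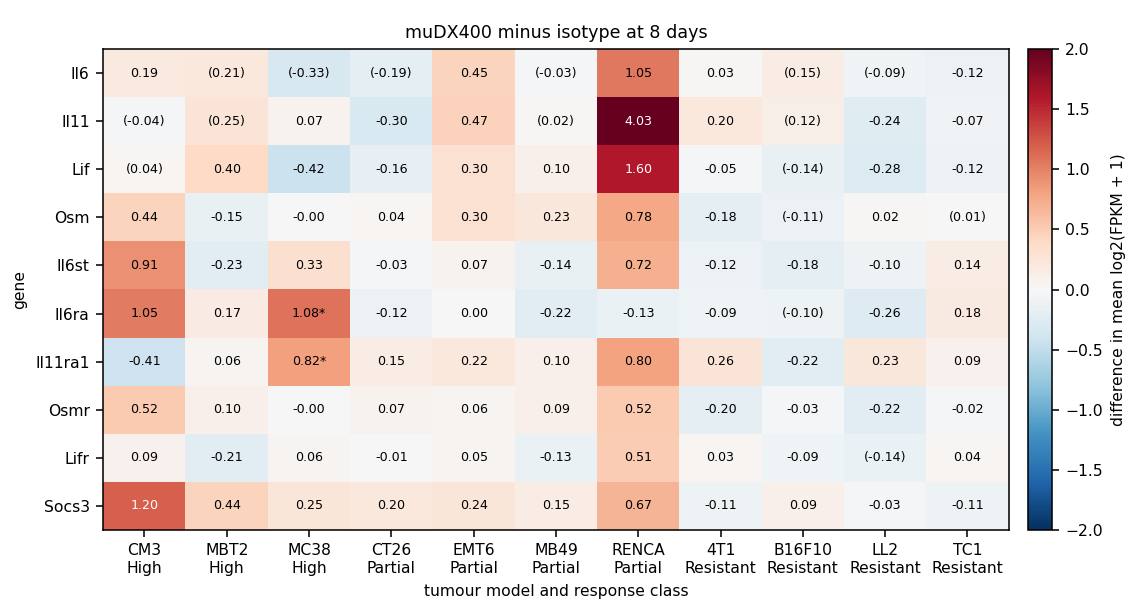
Differences in log2(FPKM + 1) between muDX400 and isotype tumours for each member (rows) and model (columns, by response class), on a colour scale cut at 2 in either direction. Stars mark adjusted p under 0.05 (Il6ra and Il11ra1 in MC38), parentheses mark members under the filter on low values, and RENCA, whose Il11 difference of 4.03 is beyond the scale, carries no test.

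Averaged over the 10 models with a shared spread per gene, Socs3 was the 1 member called, where 20.4% of 16019 genes were called and 13.8% were called higher. Socs3 rose by 0.23 ± 0.06 (adjusted p = 0.00491, limma) and its mean log2(FPKM + 1) was higher with muDX400 in 7 of 10 models. The rise rested on CM3: without that model it was 0.13 (adjusted p = 0.113). The sample numbers in the labels were cut here into blocks at wide gaps between consecutive numbers, and the labels name no blocks. The 2 antibody arms of a model share a block. By block, Socs3 differed by 0.38 (adjusted p = 0.00859) in 4T1, CM3, CT26, MB49 and MBT2, by 0.09 (adjusted p = 0.467) in EMT6, LL2, MC38 and TC1, and by 0.09 (adjusted p = 0.909) in B16F10 (limma). Il6ra differed by 0.17 ± 0.06 (adjusted p = 0.0521, limma) with a higher mean log2(FPKM + 1) in 5 of the 10 models. For the ligands the average differences were 0.03 for Il6, 0.05 for Il11, -0.03 for Lif and 0.06 for Osm. The median over the 10 members was 0.05, against -0.01 over all genes.

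Whether the effect of muDX400 differed among the 10 models was tested by the interaction of model and arm, with 1 spread per gene shared over the models. It called 35% of 16019 genes and 3 members. These were Il6ra (F = 5.92, adjusted p = 0.000112), Socs3 (F = 3.55, adjusted p = 0.00639) and Il6st (F = 3.24, adjusted p = 0.0112), by limma. CM3 isotype tumours were widely scattered for these members. Their SD was 2.19 FPKM on a mean of 2.26 for Il6ra, 14.5 on 23.2 for Socs3 and 12.1 on 19.4 for Il6st. The part of this scatter in the calls was not tested. Il6ra differences ran from 1.08 in MC38 and 1.05 in CM3 to -0.22 in MB49 and -0.26 in LL2. Il6st, the shared chain, ran from 0.91 in CM3 and 0.33 in MC38 to -0.23 in MBT2, and its call was lost without CM3 isotype replicate 2 (adjusted p = 0.0648) or 3 (adjusted p = 0.0677). Il11 (adjusted p = 0.0898) and Lif (adjusted p = 0.0782) did not pass.

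Response class was then set against the family, with the model as the replicate and a score per class (Resistant 0, Partial 1, High 2). The size of the muDX400 effect was not called as a trend for any of the 10 members, where 3.25% of 13475 genes were called (limma); 3 members had an unadjusted p under 0.05, as had 3674 of those genes. Socs3 had a slope of 0.33 ± 0.09 per class (adjusted p = 0.0589), Il6ra 0.40 ± 0.12 (adjusted p = 0.0775) and Osmr 0.16 ± 0.06 (adjusted p = 0.123). Without MBT2, Socs3 (0.36, adjusted p = 0.0419) and Il6ra (0.49, adjusted p = 0.0347) passed. Socs3 differences were 1.20, 0.44 and 0.25 in the High models CM3, MBT2 and MC38, then 0.20, 0.24 and 0.15 in the Partial models CT26, EMT6 and MB49, and -0.11, 0.09, -0.03 and -0.11 in the Resistant models 4T1, B16F10, LL2 and TC1.

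Levels before treatment showed no called trend with response class over the 11 models, for 9 members tested or for any of 14009 genes (limma, 431 genes at an unadjusted p under 0.05). Lifr had the smallest p among members, with a slope of 0.54 ± 0.23 per class (adjusted p = 0.9997, limma). Il11 had a slope of -0.64 ± 0.47 and Lif of -0.34 ± 0.44. At baseline 8 of the models share a block of sample numbers, and no member was called in those 8 alone.

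Isotype tumours at 8 days were then compared with baseline tumours, which had no injection. In 9 of the 10 tested models these arms also differ in the block of sample numbers, so time, the injected antibody and the block cannot be told apart. Of 86 member tests, 3 were called higher and 7 lower in isotype tumours, and 6 of the 7 lower calls were in TC1, a lung line of the Resistant class in which 37% of genes were called and 27.1% were called lower.

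TC1 isotype tumours had less of most of the family than TC1 baseline tumours. Il11 had 24.3, 20.5, 21.6, 24.7 and 24.6 FPKM in isotype tumours, against 42.7, 29.4 and 29.9 FPKM at baseline, with no overlap, as for 40.9% of TC1 genes (-0.52 ± 0.12, adjusted p = 0.00642, limma). Il6 had 2.01, 2.90, 2.37, 3.15 and 2.78 FPKM in isotype tumours, against 8.10, 3.46 and 3.87 FPKM at baseline (-0.69 ± 0.21, adjusted p = 0.0262, limma). Baseline replicate 1 was the highest baseline tumour for both ligands. Without it the Il6 difference was -0.37 (adjusted p = 0.0752), and without isotype replicate 1 it was -0.62 (adjusted p = 0.0578).

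Lif fell by 0.46 in TC1 isotype tumours (adjusted p = 0.00494), and the receptor chains Il6st, Osmr and Il11ra1 by 0.75, 0.50 and 0.31 (adjusted p = 0.000766, 0.0146 and 0.0299, limma). Il6st had 23.0, 19.7, 25.1, 21.3 and 22.7 FPKM in isotype tumours, against 48.0, 34.8 and 33.4 FPKM at baseline, with a wide gap between the groups. The Osmr call was lost without baseline replicate 1 (-0.40, adjusted p = 0.0681), and the Il11ra1 call without any 1 of 4 libraries (adjusted p between 0.0561 and 0.129). Socs3 was near its baseline level in TC1 (-0.06 ± 0.07, adjusted p = 0.508, limma). Of the 13068 genes tested in TC1, 1296 were called higher and 3536 lower, and 2212 higher and 2761 lower after scaling each library by its median ratio. Summed markers were also lower in TC1 isotype than in baseline tumours: 30.2 to 38.0 against 68.9 to 121 FPKM for endothelial cells, 377 to 690 against 904 to 1050 FPKM for macrophages, 3.02 to 4.38 against 13.2 to 65.3 FPKM for neutrophils and 1430 to 1660 against 2030 to 3480 FPKM for fibroblasts. TC1 baseline libraries were also sequenced more deeply, and the part of these differences in the result was not tested.

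Outside TC1, Socs3 rose in 4T1, with 54.5, 46.1, 52.5, 56.8 and 46.7 FPKM in isotype tumours, against 34.9, 36.3 and 34.9 FPKM at baseline (0.52 ± 0.09, adjusted p = 0.00540, limma), where 15.3% of genes were called. The groups did not overlap, as for 22.4% of genes, and 4.61% were called higher. Neutrophil markers in 4T1 summed to 159 to 361 FPKM in isotype tumours and 31.1 to 50.5 FPKM at baseline, and their part was not tested. Without 4T1 baseline replicate 3, Il6st (0.93), Osmr (0.80) and Il6ra (0.77) were called as well, where 4985 genes were called.

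In CT26 Il11 had 13.8, 11.7, 15.7, 11.6 and 11.9 FPKM in isotype tumours, against 10.8, 4.27 and 6.04 FPKM at baseline. It rose by 0.86 ± 0.23 (adjusted p = 0.0222, limma, 23.4% of genes called and 4.4% called higher), and the call was lost without baseline replicate 2 (0.60, adjusted p = 0.0860) and without isotype replicate 1 or 3. In EMT6 Il6st had 28.8, 34.0, 32.2, 31.8 and 28.7 FPKM in isotype tumours, against 23.3, 24.5 and 22.6 FPKM at baseline, and rose by 0.39 ± 0.07 (adjusted p = 0.00965, limma, 10.6% of genes called and 2.92% called higher), but not without baseline replicate 3 (adjusted p = 0.0569). In EMT6 the neutrophil markers summed to 121 to 227 FPKM in isotype tumours and 55.6 to 85.1 FPKM at baseline, the 5 adipocyte markers to 59.8 to 613 FPKM in isotype tumours and 9.88 to 41.2 FPKM at baseline, and their part was not tested. With the replicate number as a block, a fit of 3 same-numbered pairs, Socs3 (0.72, adjusted p = 0.00849), Lifr (0.68, adjusted p = 0.0113) and Il11ra1 (0.32, adjusted p = 0.0283, limma) were called in EMT6 too. That fit left out isotype replicates 4 and 5. The labels do not say that these numbers pair tumours, so nothing is read from it. In LL2 Il11ra1 had 5.79, 7.59, 6.23, 5.55 and 6.75 FPKM in isotype tumours, against 11.3, 11.6 and 12.8 FPKM at baseline, and fell by 0.81 (adjusted p = 0.000769, limma, 27.1% of genes called and 15.8% called lower). LL2 markers summed to 715 to 870 FPKM in isotype tumours and 1120 to 1190 FPKM at baseline for fibroblasts, 0.421 to 2.92 against 14.0 to 21.1 FPKM for T cells and 322 to 572 against 596 to 678 FPKM for macrophages, and their part was not tested. With 1 spread shared over the 10 models, 5 of the 10 calls were lost: Il11ra1 in LL2 (adjusted p = 0.0663) and TC1 (0.594), Lif in TC1 (0.132), Socs3 in 4T1 (0.15) and Il6st in EMT6 (0.542, limma). Without the filter on low FPKM, 4 were lost: Il11 in CT26 and Il6, Il11ra1 and Osmr in TC1. The other models had no called member, with 22.4% of genes called in MBT2, 3.25% in MC38, 1.89% in MB49, 0.933% in B16F10 and 0.374% in CM3.

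**Figure D5:**
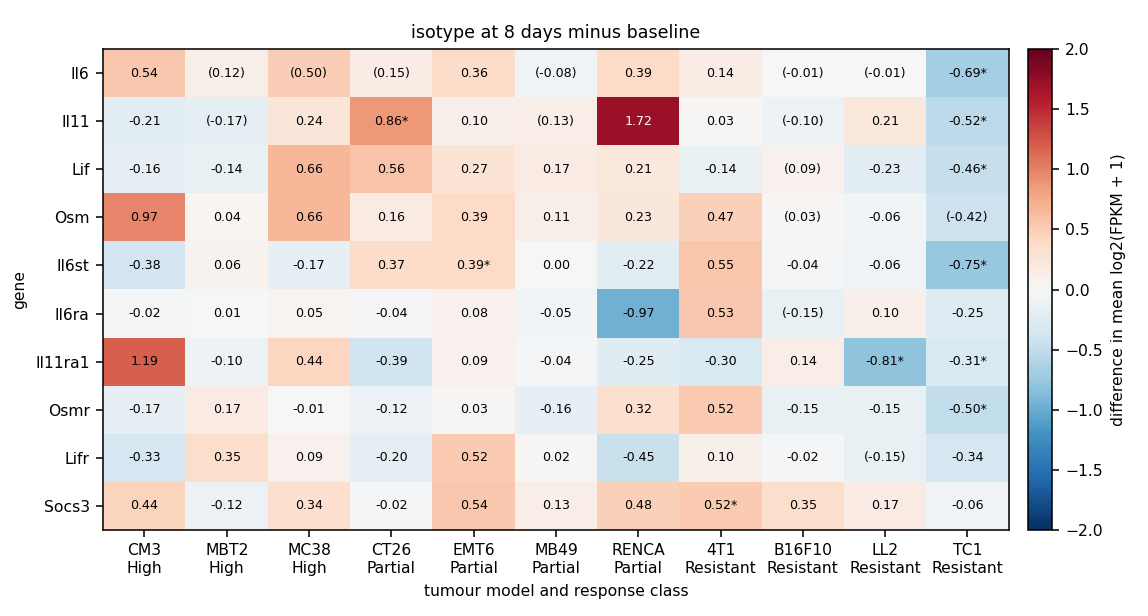
Differences in log2(FPKM + 1) between isotype and baseline tumours for each member (rows) and model (columns, by response class), on a colour scale cut at 2 in either direction. Stars mark adjusted p under 0.05 and parentheses members under the filter; TC1 holds 6 of the 7 lower calls, and Socs3 in 4T1, Il11 in CT26 and Il6st in EMT6 are the 3 higher ones.

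Over the 10 models on average, Osm and Socs3 were called higher in isotype than in baseline tumours, where 26% of 16671 genes were called and 4.04% were called higher. Osm rose by 0.24 ± 0.06 (adjusted p = 0.00360, limma), with a higher mean log2(FPKM + 1) in 8 of 10 models. CM3 had the largest difference, with 2.22, 4.36, 2.26, 4.62 and 2.46 FPKM in isotype tumours, against 0.60, 1.38 and 1.30 FPKM at baseline, and without CM3 the rise was 0.15 (adjusted p = 0.0629). Socs3 rose by 0.23 ± 0.07 (adjusted p = 0.0157, limma), with a higher mean log2(FPKM + 1) in 7 of 10 models. It was 0.20 without 4T1 (adjusted p = 0.0719) and 0.19 without EMT6 (adjusted p = 0.0589). Within the blocks of sample numbers at 8 days, Osm differed by 0.35 (adjusted p = 0.00816) in 4T1, CM3, CT26, MB49 and MBT2 and by 0.14 (adjusted p = 0.278) in EMT6, LL2, MC38 and TC1. Socs3 differed by 0.19 (adjusted p = 0.308) in those 5 models and by 0.25 (adjusted p = 0.0117) in the other 4, and by 0.35 (adjusted p = 0.783) in B16F10, the 1 model whose arms share a block. The isotype libraries are shared between this comparison and that of muDX400 with isotype, so the rises of Socs3 in both are not independent.

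The rest of the pathway was read from a list of 33 genes, 7 other ligands, 4 other receptors, 9 signalling genes and 13 known STAT3 targets. The list was chosen with earlier results of these data known, so its counts are a description and no independent support. On average over 10 models, 15 of 30 tested were called higher with muDX400 than with isotype and 0 lower, with a median difference of 0.15, where 13.8% of all genes were called higher and 6.65% lower. Among them were Hp (0.61 ± 0.21), which encodes the haemoglobin-binding protein haptoglobin, Steap4 (0.48 ± 0.10), a metalloreductase, and Socs1 (0.46 ± 0.09), a feedback inhibitor of cytokine receptors. In MC38, 10 of 28 were called higher and 2 lower, among them Il4ra (1.48 ± 0.19), the kinase Tyk2 (1.04 ± 0.17) and the ligand subunit Il27 (1.03 ± 0.20). Of all MC38 genes, 1864 were called higher and 1618 lower, and 2087 and 963 after median-ratio scaling. In the other 9 models 0 of the list were called between muDX400 and isotype. Of all genes, 0.339% were called in CT26, 0.0802% in TC1 and 0% in 4T1, B16F10, CM3, EMT6, LL2, MB49 and MBT2, so nothing is read from that 0.

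The trend of the muDX400 effect with response class was called for 7 of 29 genes of this list, all with positive slopes, where 2.54% of all genes were called with positive and 0.712% with negative slopes. Among them were Il27 (0.44 ± 0.06 per class), Socs1 (0.32 ± 0.06) and the kinase Pim1 (0.29 ± 0.06). Between isotype and baseline tumours, the average over 10 models was called higher for Junb (0.46 ± 0.05), Cebpd (0.43 ± 0.05) and Lcn2 (0.39 ± 0.13) and lower for Cebpb (-0.80 ± 0.09), the largest of 4 higher and 3 lower among 30, where 4.04% of all genes were called higher and 21.9% lower. Hp differed by model: it averaged 142 FPKM in isotype tumours and 7.87 FPKM at baseline in 4T1, 72.9 and 3.45 FPKM in EMT6, but 8.80 and 78.8 FPKM in TC1 and 12.5 and 77.4 FPKM in LL2, and each of these 4 differences was called. In TC1 17 of 28 tested genes of the list were called lower and 2 higher, where 27.1% of all genes were called lower and 9.92% higher. In RENCA, with no test, groups of muDX400 and isotype tumours did not overlap for 9 of 28 genes, all higher with muDX400. Lrg1 (1.42 ± 0.24), Cebpb (1.11 ± 0.14), Cebpd (0.90 ± 0.22) and Il4ra (0.88 ± 0.16) were the largest, and the median over the 28 was 0.65. Over all genes the groups did not overlap for 4.94%, and for 3.58% with muDX400 higher. Nothing is read from these RENCA counts, since Il11 in this contrast chose the family.

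As a description, genes were ranked by how closely their log2(FPKM + 1) followed each ligand and Socs3, first over the 33 group means of model and arm, which share a line and a host. The RENCA groups are included, so the Il11 values that chose the family enter these rankings, and nothing is read from those of Il11. Il11 was most like Fetub (r = 0.85), Mrc2 (0.83) and Cebpd (0.82), Il6 like Hsd11b1 (0.85), Gpx7 (0.84) and Fzd1 (0.82), and Lif like Cfap43, Il1b (0.90 each) and Sh2b2 (0.89). Osm was most like Hcar2 (0.91), Hdc and Adam8 (0.89 each), and Socs3 like Nfatc1 (0.90), Bsdc1 and Iqsec2 (0.88 each). Among the members, Socs3 followed Il6ra (0.87) and Lif (0.80) most closely.

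Over the 110 libraries at 8 days with the mean of each model and arm removed, so that tumours of 1 group were compared with each other, the nearest genes were different ones. RENCA libraries are included here too. Il11 was most like Nt5e (0.78), Odaph and Ereg (0.74 each), and Il6 like the fibroblast growth factor Fgf7 (0.75), Ereg (0.67) and the collagenase Mmp13 (0.64). Lif was most like Errfi1 (0.70), Kctd11 (0.69) and the chemokine Cxcl1 (0.64), and Osm like Il1b, Csrnp1 (0.61 each) and Ccl7 (0.60). Socs3 was most like Xdh (0.81), Sbno2 and Plekho2 (0.80 each).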

How the data were processed

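RNA of whole tumours was sequenced as stranded, ribosomal RNA-depleted paired-end libraries with 50-base reads, per the labels' protocols. The authors deposited 1 table of FPKM values per gene and library; for the aligner, quantifier and genome build, the tools were not given in the sources used here. Depth was estimated from the steps between low FPKM values. Differences and their standard errors came from limma 3.58.1 in R 4.3.3 (trend on, 2-sided) on log2(FPKM + 1), a scale that understates changes of low genes, with Benjamini-Hochberg adjustment over all genes tested and a threshold of 0.05. Genes needed at least 1 FPKM in 5 libraries (muDX400 against isotype) or in 3 (isotype against baseline), or a mean of 1 FPKM in 3 models (class trends). Among the reported tests RENCA entered only the baseline trend, and it was part of the rankings by correlation. The fits were tested on simulated data drawn with the spread of MC38 isotype tumours in every model. Unequal spread between models, as in CM3, was not covered. The members and gene lists were chosen with earlier results of these data known. All members are named, and from the wider list up to 4 called genes with the largest difference per comparison; 1 gene of that list enters the counts but is not reported here by name. Replicate numbers are not said to pair tumours. Deviations of same-numbered tumours correlated above 0.1 in every pair only between EMT6 isotype and baseline tumours (3 pairs, 0.176 to 0.315). The blocked values are given there as an alternative only. Loci came from GENCODE on GRCm38 and promoter windows from RefSeq on GRCm38.p6. Alternatives were a pseudocount of 0.1, no filter, median-ratio scaling, a replicate block, a shared spread, single models or blocks of sample numbers, and each library left out.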

Additional observations from a re-analysis of the deposited data

Results flagged for a closer look

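Among 220 sets of 5 values, 1 set per member, model and antibody arm, 11 held 1 tumour far from the other 4 by Dixon's criterion. Chance gives this in about 1 set in 20, so a number of this size is no result in itself. The members share the same tumours, so the sets are not independent. For the ligands, Il11 was 2.02 FPKM in CM3 muDX400 replicate 5, with the others at 0.368 to 0.587 FPKM, and 19.0 FPKM in EMT6 muDX400 replicate 5, with the others at 5.60 to 7.46 FPKM. MC38 isotype replicate 3 stood apart for Lif (4.41 FPKM, others 6.27 to 6.68), Osm (2.70 FPKM, others 1.13 to 1.30) and Il11ra1 (13.6 FPKM, others 9.73 to 10.4). Osm was 3.67 FPKM in MBT2 isotype replicate 5, with the others at 2.13 to 2.30 FPKM. B16F10 muDX400 replicate 2 was low for Il11ra1 (16.5 FPKM, others 27.5 to 30.4) and Osmr (1.13 FPKM, others 1.52 to 1.66). Il11ra1 was 36.2 FPKM in MBT2 muDX400 replicate 5 (others 19.4 to 22.8), Osmr 2.52 FPKM in LL2 muDX400 replicate 2 (others 3.34 to 3.72) and Lifr 0.384 FPKM in RENCA isotype replicate 1 (others 1.12 to 1.36).

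The effect of muDX400 differed among the 10 tested models for Il6ra (F = 5.92, adjusted p = 0.000112), Socs3 (F = 3.55, adjusted p = 0.00639) and Il6st (F = 3.24, adjusted p = 0.0112) by limma's interaction test, which called 35% of 16019 genes. That test shared 1 spread per gene over the models, while CM3 isotype tumours were widely scattered for these members. The Il6st call was lost without CM3 isotype replicate 2 (adjusted p = 0.0648) or 3 (adjusted p = 0.0677). Between isotype and baseline tumours, some members differed in opposite directions in 2 models with no overlap of the arms in either, and these contrasts between models were not tested. Arms did not overlap for 29.6% of all genes in CT26, 40.9% in TC1, 22.8% in EMT6, 14.8% in MC38, 36.9% in LL2 and 9.55% in MB49. Il11 differed by 0.86 in CT26 and -0.52 in TC1, a gap of 1.39 on the log2 scale. Il6st differed by 0.39 in EMT6 and -0.75 in TC1, a gap of 1.14. Il11ra1 differed by 0.44 in MC38 and -0.81 in LL2, a gap of 1.25, and Lif by 0.17 in MB49 and -0.46 in TC1, a gap of 0.63. Of these, Il11ra1 in MC38 (adjusted p = 0.168) and Lif in MB49 (adjusted p = 0.504) were not called by limma.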

How the results depend on the processing

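Of 7150 single-member values under the alternatives, 6724 kept their direction and side of the threshold, 97 passed it, 42 no longer did and 287, over 83 differences, changed sign. None of the 287 was called before or after, and the largest of those differences was 0.443 as reported. Among values given above, with median-ratio scaling Socs3 was 0.0028 in LL2 between muDX400 and isotype and 0.019 in TC1 between isotype and baseline, and Osm in MC38 0.041, or 0.012 with a pseudocount of 0.1. Il11ra1 in CM3 was 0.30 with muDX400 after isotype replicates 2 and 3 were left out, a setting chosen after seeing the data. The mean muDX400 difference of Il6 was -0.0082 with that pseudocount, -0.019 without EMT6 and -0.020 in EMT6, LL2, MC38 and TC1, and that of Lif 0.12 with RENCA included, 0.012 without MC38 and 0.068 in 4T1, CM3, CT26, MB49 and MBT2. The baseline slope of Lif was 2.1e-05 without CM3. With 1 library left out, differences between muDX400 and isotype ran from -0.029 to 0.24 for Socs3 in B16F10, -0.11 to 0.073 for Socs3 in LL2, -0.059 to 0.14 for Osm in MC38 and -0.00049 to 0.045 for mean Il6, and between isotype and baseline from -0.040 to 0.27 for Il11ra1 in EMT6. Within models, the 2 members called between muDX400 and isotype were 1 without the filter and 7 with a spread shared over the 10 models, and 1 to 7 with 1 library left out. The 10 called between isotype and baseline were 7 to 13 with 1 library left out and 7 to 12 otherwise. The mean muDX400 effect called 1 member as reported, 2 with median-ratio scaling, with a replicate block, or without 4T1, B16F10, CT26, LL2 or MB49, 3 with RENCA included, which draws on the values that chose the family and from which nothing is read, 0 without CM3 or in B16F10 alone, and 1 to 2 with 1 library left out. The mean difference between isotype and baseline called 2 members as reported and with any library left out, but 1 with a replicate block, without 4T1, CM3 or EMT6, or in either multi-model block of sample numbers, 0 in B16F10 alone, and 3 with a pseudocount of 0.1 (Il6 0.35, adjusted p = 0.0481) or without TC1 (Il6 0.19, adjusted p = 0.0246, limma). The class trend of the muDX400 effect called 0 as reported, 2 without MBT2 and 0 to 1 with 1 library left out, and the interaction test 3 as reported and 2 to 4 with 1 library left out. Replicate numbers are not known to pair tumours in any model. Outside EMT6 the block ended the calls of Socs3 in 4T1 (0.51, adjusted p = 0.11), Il11 in CT26 (0.95, adjusted p = 0.0781) and Il6 and Il11ra1 in TC1 (-0.77, adjusted p = 0.0546, and -0.28, adjusted p = 0.0640, limma). It added Lif in LL2 (-0.55, adjusted p = 0.00931, limma). The mean Socs3 difference between isotype and baseline was 0.19 with the block (adjusted p = 0.0830, limma). Under the block the genes called between isotype and baseline were 460 in 4T1 (2013 as reported), 750 in CT26 (2952), 2768 in EMT6 (1365), 5527 in LL2 (3369), 17 in MB49 (240), 77 in MC38 (422), 52 in B16F10 (111) and 0 in CM3 (49). Without the filter, calls of Il11 in CT26 (adjusted p = 0.0619) and of Il6, Il11ra1 and Osmr in TC1 (0.0851, 0.0760 and 0.0520) ended, and Osm in TC1, otherwise untested, was called (-0.42, adjusted p = 0.0339). Median-ratio scaling turned 607 higher and 1406 lower genes into 883 and 1138 in 4T1, 555 and 2397 into 1003 and 1900 in CT26, and 1365 and 1502 into 1642 and 977 in MBT2, between isotype and baseline. The causes were not tested. Il6 and Il11 in B16F10 rest on few fragments and were not tested there.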
